A study of Oncorhynchus mykiss with 9 samples.

Results

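The genes described here are the DNA polymerases of chromosome replication and the factors that work beside them at the replication fork, as transcripts in the head kidney of rainbow trout kept under low oxygen. They were taken from a table of 44219 genes. The rule asked for genes whose first KEGG pathway is DNA replication, leaving out the mcm helicase subunits, and it found 17 genes. The sliding clamp, its loader, the single-strand binding protein RPA, DNA ligase 1 and the subunits of polymerases delta and epsilon carry another first pathway in this table (nucleotide excision repair for 19, Fanconi anaemia for 8 and tight junction for 2 of the expressed ones). These were added by symbol (31 genes) or by KEGG number (2 genes), which gave 50 genes with 32 symbols. Of the 50 genes, 44 reached a mean count of 10 in 1 group or more and are called expressed. The other 6 were 2 copies of fen1, 2 of pcna, a POLA2 copy at 0 in each group and an unnamed gene with the KEGG number of a polymerase delta subunit, with 8.33 counts as the highest value among them. RNASEH2A (2 of 2) is the 1 gene that reached 10 counts in hypoxia and not in the control.

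The study made 9 libraries, 3 per group, from bulk head kidney, the organ in which fish make blood cells and which also holds cortisol-producing and catecholamine-producing cells. The severe hypoxia group was held at 3.0 mg/L dissolved oxygen and labelled 12 h. The moderate hypoxia group was held at 4.5 mg/L and also labelled 12 h, and the control group at 8.5 mg/L was labelled 0 h. Fish of all groups were full siblings of about 130 g reared at 12 °C, and low oxygen was made by mixing oxygen and nitrogen. Time and oxygen therefore differ together between either hypoxia group and the control, and their parts in a difference cannot be told apart, while the 2 hypoxia groups share the time label. The deposited table gives 1 mean count and 1 FPKM (fragments relative to gene length and to the library total) per gene and group. With no values per fish, the variation among replicates cannot be set beside any difference, and no test was made. Intervals are 95% and cover counting error only.

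At a replication fork the helicase opens the double strand and RPA coats the single strands. Primase and polymerase alpha lay down a short primer, the loader RFC closes the PCNA clamp around it, and polymerases epsilon and delta, which in yeast copy chiefly the leading and the lagging strand, extend it. Flap endonuclease, DNA2 and RNase H2 remove the primers and ligase 1 seals the nicks. Most of these genes are transcribed in dividing cells as they enter S phase, and in the head kidney those include blood cell precursors. Salmonids went through a whole-genome duplication, so that many of the genes occur here as several copies; a copy is written below with its place by abundance, as in pcna (1 of 4).

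Mean library totals were 14700244 counts in severe hypoxia, 15301518 in moderate hypoxia and 15246482 in the control. Scaling by a trimmed mean of log ratios divided severe counts by 1.22 and moderate counts by 1.62 relative to the control. This sets the median log2 ratio of the 28711 analysed genes to 0.00 against the control. On library totals that median was 0.34 for severe hypoxia and 0.69 for moderate hypoxia against the control, and -0.34 for severe against moderate hypoxia, so a direction below is relative to the bulk of genes. The labelled tissue bore its own transcripts, with star, cyp11a1, th, dbh and pnmt of the interrenal and chromaffin cells all detected.

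Summed over all 50 fork genes, with the 6 not expressed included, transcripts were most abundant in moderate hypoxia and least abundant in severe hypoxia. Together they took 631 CPM (counts relative to the library total) in severe hypoxia (Wilson interval 624 to 639), 1447 in moderate hypoxia (1436 to 1458) and 772 in the control (764 to 780). As summed scaled counts per library these were 7610, 13688 and 11776 in the same groups. The sum in severe hypoxia was thus 1.80-fold lower than in moderate hypoxia and 1.55-fold lower than in the control. In moderate hypoxia the sum was 1.16-fold higher than in the control. With copies summed, pcna had 1418, 3522 and 2437 scaled counts in severe hypoxia, moderate hypoxia and the control, and rpa1 had 984, 1987 and 1294. Most of the difference between the moderate and control scaled sums came from pcna and rpa1. Gene by gene the order was not general, as 29 of the 44 expressed genes were above the control in moderate hypoxia. In bulk tissue, fewer dividing cells and less RNA of these genes per cell cannot be told apart.

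**Figure D1:**
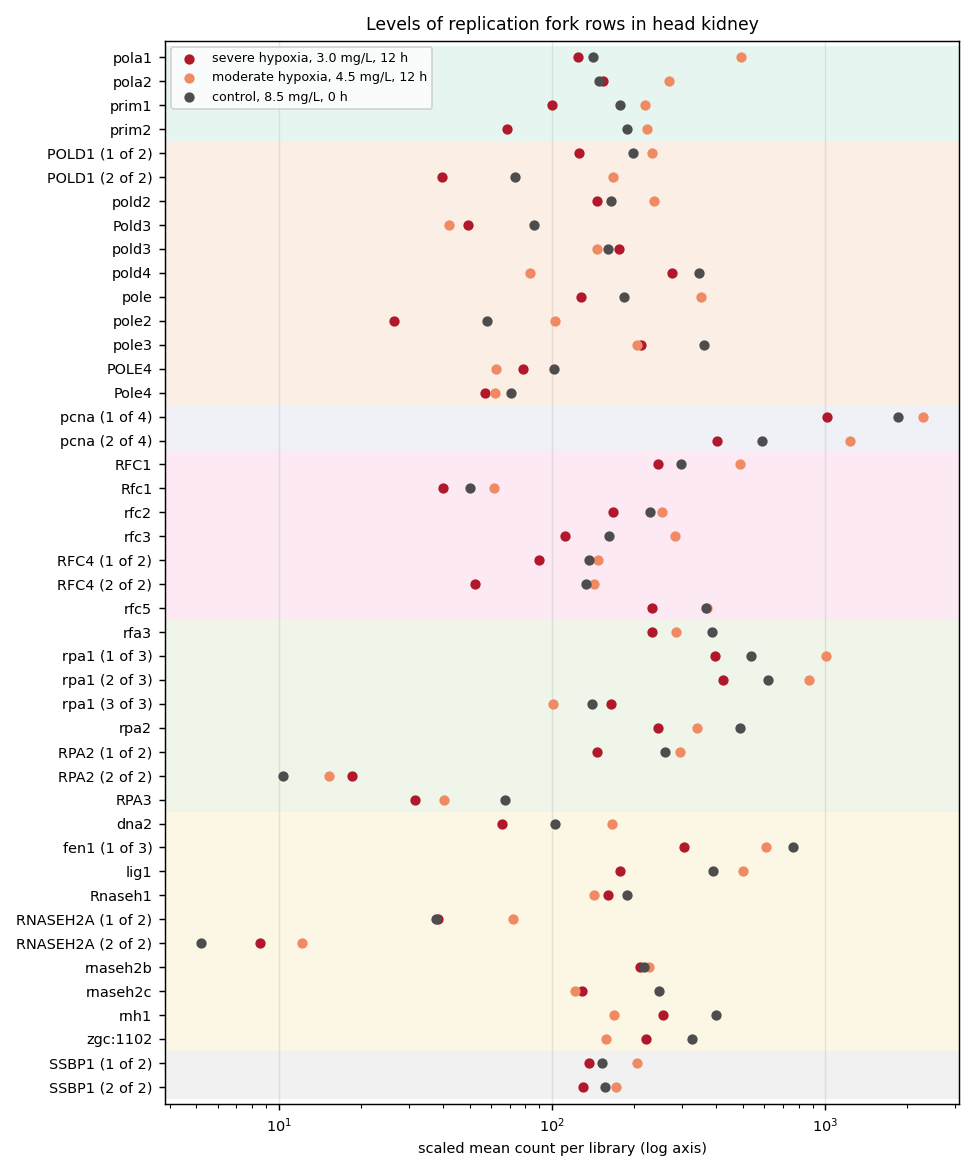
Scaled mean count per library (log axis) of each expressed fork gene in severe hypoxia, moderate hypoxia and the control, with background shades for the roles in the order of the text. Each point is 1 group mean without an error, and the moderate point lies right of the severe point for 33 of 44 genes.

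Between the hypoxia groups, 17 of 44 fork genes (38.6%) were at least 2-fold lower in severe than in moderate hypoxia, against 10.5% of all analysed genes. One fork gene (2.27%) was at least 2-fold higher, against 9.03% of all genes. The median log2 ratio was -0.69, and 11 of 44 ratios lay above 0, against 50.6% of all genes. Severe hypoxia against the control had 7 fork genes (15.9%) at least 2-fold lower, where all genes had 4.40%, and 0 at least 2-fold higher, where all genes had 13.7%. The median was -0.55, with 6 of 44 ratios above 0 and 50.3% of all genes above 0. On library totals, where every ratio of that comparison moves up by the same amount, 16 of the 44 were above 0, 2 were at least 2-fold lower (2.09% of all genes) and the median was -0.21. At 1.5-fold, 20 of 44 were lower by the scaling used, against 13.1% of all genes.

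Moderate hypoxia against the control was mixed. At least 2-fold higher were 4 fork genes (9.09%), which is below the 20.0% of all genes, and 5 (11.4%) were at least 2-fold lower, near the 14.1% of all genes. The median was 0.21, and 29 of 44 ratios lay above 0, against 50.2% of all genes. At 1.5-fold, 12 were higher, against 29.4% of all genes. The 4 higher genes were pola1, POLD1 (2 of 2), pcna (2 of 4) and RNASEH2A (2 of 2). The last passed the count minimum through the hypoxia groups alone, where it is high. With a minimum of 50 counts 3 genes were higher. The 5 lower ones were pold4, Pold3, rnaseh2c, rnh1 and the gene listed as zgc:1102. On library totals 17 were at least 2-fold higher, against 38.0% of all genes, and the median was 0.90, against 0.69 for all genes.

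**Figure D2:**
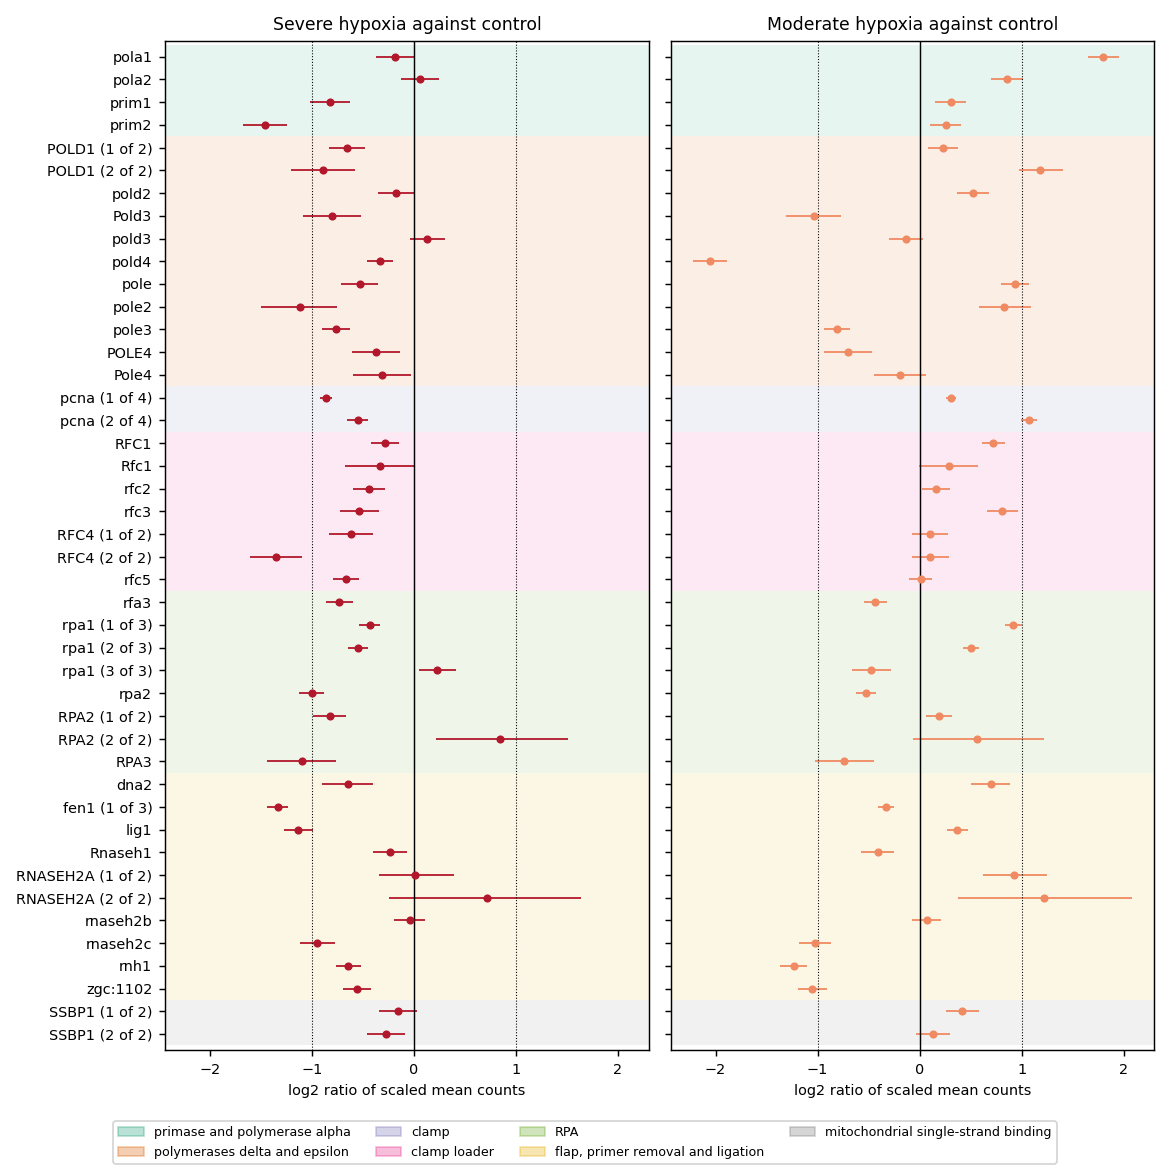
Log2 ratio of scaled mean counts for severe hypoxia (left) and moderate hypoxia (right) against the control, with 95% counting intervals as bars, 1 line per expressed fork gene and shades for the roles. On the left 38 of 44 points lie below 0, and on the right 29 of 44 lie above 0, with pola1 at 1.80 and pold4 at -2.05 as the ends of the range.

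The primase and polymerase alpha complex, which starts each new strand, was low in severe hypoxia relative to moderate hypoxia. All 4 of its expressed genes were lower in severe than in moderate hypoxia, 3 of them at least 2-fold, with a median log2 ratio of -1.42, and the 4 kept that direction under every scaling tried. The catalytic subunit pola1 had 125 scaled counts in severe hypoxia, 492 in moderate hypoxia and 141 in the control. Its moderate value stood apart, 3.48-fold above the control (counting interval 3.14 to 3.87), while the severe value was 3.95-fold below the moderate one. The severe and control values lay close together, with a log2 ratio of -0.18 whose counting interval of -0.38 to 0.01 included 0; on library totals it was 0.16. The accessory subunit pola2 was also highest in moderate hypoxia, by a smaller margin, at 154 in severe hypoxia, 268 in moderate hypoxia and 148 in the control.

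The primase subunits differed from pola1 in where the low value stood. The catalytic small subunit prim1 had 100.3 scaled counts in severe hypoxia, 219 in moderate hypoxia and 177 in the control. For the large subunit prim2 the values were 68.3 in severe hypoxia, 224 in moderate hypoxia and 188 in the control. In both genes severe hypoxia was low, and moderate hypoxia was above the control by 0.30 and 0.25 on the log2 scale, or by 0.99 and 0.94 on library totals. In severe hypoxia prim2 was 2.75-fold lower than in the control (log2 ratio -1.46, counting interval -1.68 to -1.24), the lowest ratio of any fork gene in that comparison.

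Polymerases delta and epsilon, with 11 expressed genes, divided along their subunits. Their catalytic and second subunits were lower in severe than in moderate hypoxia under every scaling tried, with log2 ratios from -2.08 to -0.70. The ratios of the other subunits lay between -0.12 and 1.72. On library totals 10 of the 11 genes were below 0 in that comparison, all but pold4, so the division was then of degree. POLD1 (1 of 2), a copy of the catalytic subunit of polymerase delta, had 126 scaled counts in severe hypoxia, 233 in moderate hypoxia and 198 in the control. POLD1 (2 of 2) had 39.5 in severe hypoxia, 167 in moderate hypoxia and 73.5 in the control. This second copy was 2.27-fold higher in moderate hypoxia than in the control (1.96 to 2.65). The interval does not cover how any reads shared by the copies were divided. In severe hypoxia the second copy was 4.22-fold lower than in moderate hypoxia, by the scaling used the lowest ratio between the hypoxia groups among the fork genes. With the length trend removed its log2 ratio was -1.99, and that of pole2 was lower, at -2.17. The second subunit pold2 had 146 in severe hypoxia, 237 in moderate hypoxia and 165 in the control.

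The other subunits of polymerase delta ran otherwise. The gene pold4, whose product is shed from the enzyme after DNA damage in human cells, had 275 scaled counts in severe hypoxia, 83.4 in moderate hypoxia and 347 in the control. It was 4.16-fold lower in moderate hypoxia than in the control (log2 ratio -2.05, counting interval -2.22 to -1.89), and 3.30-fold higher in severe than in moderate hypoxia, which makes it the 1 fork gene at least 2-fold higher there. It is short, with a derived length of 625 bases, and the median log2 ratio of genes of like length was -1.11 for moderate hypoxia against the control, which leaves -0.95 for pold4. The PCNA-binding subunit POLD3 is listed as a pair of genes that differ in letter case. Pold3 had 49.5 in severe hypoxia, 42.0 in moderate hypoxia and 86.3 in the control, and pold3 had 175 in severe hypoxia, 146 in moderate hypoxia and 160 in the control. The first was lower in both hypoxia groups than in the control, whereas by the scaling used the values of the second lay within 1.20-fold of each other. On library totals pold3 was above the control by 0.55 in moderate and 0.47 in severe hypoxia on the log2 scale. There, Pold3 and pold3 turned to -0.11 and -0.09 in severe against moderate hypoxia.

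In polymerase epsilon the same division appeared. The catalytic subunit pole had 127 scaled counts in severe hypoxia, 352 in moderate hypoxia and 184 in the control. For pole2, the second subunit, which joins the polymerase to the helicase, there were 26.5 in severe hypoxia, 103 in moderate hypoxia and 57.7 in the control. Both genes were highest in moderate and lowest in severe hypoxia, with log2 ratios between those groups of -1.47 and -1.95. The histone-fold subunit pole3 had 212 in severe hypoxia, 205 in moderate hypoxia and 360 in the control. Its partner, listed as POLE4 and Pole4, had 78.4 and 56.8 in severe hypoxia, 62.6 and 61.8 in moderate hypoxia and 102 and 70.7 in the control. These 3 small-subunit genes were highest in the control, and their log2 ratios between severe and moderate hypoxia lay between -0.12 and 0.32. On library totals pole3 and POLE4 turned to -0.30 and -0.03 in that comparison, and Pole4 was above the control by 0.03 in severe and by 0.50 in moderate hypoxia.

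**Figure D3:**
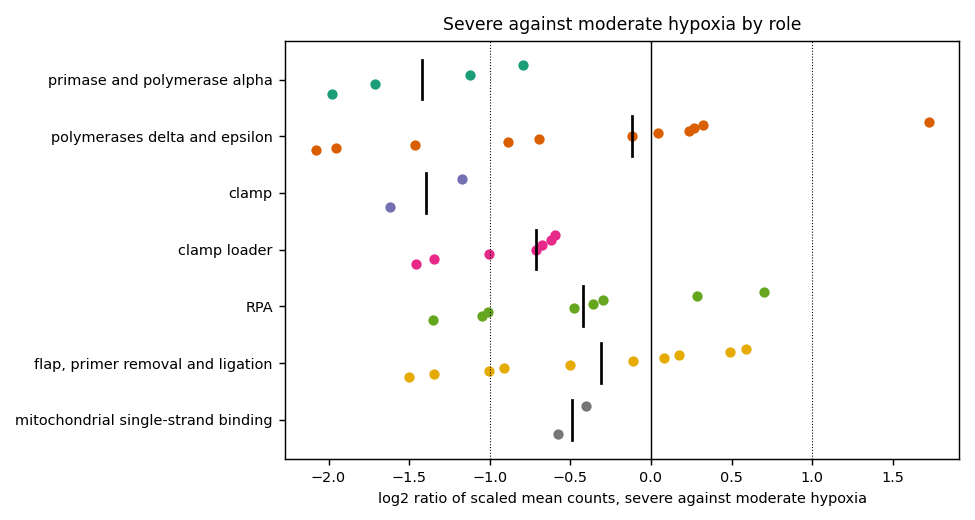
Log2 ratio of scaled mean counts in severe against moderate hypoxia for each expressed fork gene (points) by role, with the median of the role as a vertical bar and dotted lines at 2-fold. Primase and polymerase alpha lie between -1.98 and -0.79, while polymerases delta and epsilon spread from -2.08 to 1.72.

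PCNA, the ring that holds the polymerases on DNA, was the most abundant transcript of the set per length in every group, at 76.1 FPKM in severe hypoxia, 242 in moderate hypoxia and 103 in the control, with its copies summed. The copy pcna (1 of 4) had 1015 scaled counts in severe hypoxia, 2290 in moderate hypoxia and 1848 in the control. The copy pcna (2 of 4) had 401 in severe hypoxia, 1231 in moderate hypoxia and 587 in the control. Both copies were lowest in severe and highest in moderate hypoxia under every scaling tried. Against the control, severe hypoxia was 1.82-fold lower for the first (log2 ratio -0.86, counting interval -0.92 to -0.80) and 1.47-fold lower for the second. The second copy made up 28.3% of pcna counts in severe hypoxia (27.1 to 29.5), 34.97% in moderate hypoxia (34.3 to 35.7) and 24.1% in the control (23.1 to 25.1).

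All 7 genes of the clamp loader RFC were below the moderate value in severe hypoxia, with a median log2 ratio of -0.72, and below the control with a median of -0.54; on library totals RFC1 and Rfc1 turned to 0.06 and 0.00 against the control. In moderate hypoxia all 7 ratios to the control lay between 0.01 and 0.81, with a median of 0.16; none was at 2-fold by the scaling used and 2 were on library totals. The large subunit, listed as RFC1 and Rfc1, had 244 and 39.9 scaled counts in severe hypoxia, 490 and 61.3 in moderate hypoxia and 297 and 50.3 in the control. Among the small ATPase subunits, rfc3 had the largest moderate value relative to the control, with 112 in severe hypoxia, 283 in moderate hypoxia and 162 in the control. For rfc2 the values were 168 in severe hypoxia, 254 in moderate hypoxia and 228 in the control, and for rfc5 they were 232, 370 and 368 in those groups.

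The RFC4 copies parted in severe hypoxia alone. RFC4 (1 of 2) had 89.5 scaled counts in severe hypoxia, 147 in moderate hypoxia and 137 in the control, and RFC4 (2 of 2) had 52.2 in severe hypoxia, 143 in moderate hypoxia and 133 in the control. In severe hypoxia the second copy was 2.55-fold below the control and the first 1.53-fold, so the second copy supplied 36.9% of RFC4 counts in severe hypoxia, 49.4% in moderate hypoxia and 49.3% in the control.

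RPA, the 3-subunit protein that covers single-stranded DNA, was split by subunit and copy. Per length, the large DNA-binding subunit was the most abundant after the clamp in moderate hypoxia, at 76.4 FPKM with copies summed. Its copy rpa1 (1 of 3) had 396 scaled counts in severe hypoxia, 1009 in moderate hypoxia and 535 in the control. The copy rpa1 (2 of 3) had 423 in severe hypoxia, 876 in moderate hypoxia and 619 in the control. Both followed the order of the clamp. The copy rpa1 (3 of 3) ran the other way, with 165 in severe hypoxia, 101 in moderate hypoxia and 141 in the control, and supplied 16.7%, 5.10% and 10.9% of rpa1 counts in those groups. On library totals its moderate value was above the control by 0.22 on the log2 scale.

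The middle and small RPA subunits were lowest in severe hypoxia, apart from the weakly covered RPA2 (2 of 2). The gene rpa2, whose product is phosphorylated when forks stall, had 244 scaled counts in severe hypoxia, 339 in moderate hypoxia and 489 in the control. RPA2 (1 of 2) had 146 in severe hypoxia, 295 in moderate hypoxia and 259 in the control. For the small subunit, RPA3 had 31.4 in severe hypoxia, 40.4 in moderate hypoxia and 67.3 in the control, and rfa3, which carries the KEGG number of that subunit, had 232 in severe hypoxia, 285 in moderate hypoxia and 385 in the control. Severe hypoxia was lowest for each of these 4 genes under every scaling tried. Against the control, rpa2 lay at the 2-fold threshold, and the log2 ratios of RPA2 (1 of 2), RPA3 and rfa3 were -0.83, -1.10 and -0.73. In moderate hypoxia rpa2 and rfa3 were below the control by the scaling used and above it on library totals. RPA2 (2 of 2), at 10.3 to 18.6 scaled counts, was weakly covered and lowest in the control. Its log2 ratio for severe hypoxia against the control was 0.85, with a counting interval of 0.21 to 1.51. Between the hypoxia groups its counting interval of -0.21 to 0.78 included 0.

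Genes that finish the lagging strand fell into 2 patterns. The flap endonuclease fen1 (1 of 3) had 304 scaled counts in severe hypoxia, 609 in moderate hypoxia and 766 in the control. DNA ligase 1, lig1, had 177 in severe hypoxia, 502 in moderate hypoxia and 389 in the control. The nuclease and helicase dna2 had 65.6 in severe hypoxia, 167 in moderate hypoxia and 103 in the control. All 3 were lowest in severe hypoxia; against the control fen1 was 2.52-fold lower there (log2 ratio -1.33, counting interval -1.44 to -1.23) and lig1 was 2.19-fold lower (-1.13, -1.27 to -0.99).

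By the scaling used, the RNase H genes, whose products cut RNA paired with DNA, lacked that order, except for rnaseh2b by a small margin. Of RNase H2, the catalytic subunit gene RNASEH2A (1 of 2) had 38.2 scaled counts in severe hypoxia, 71.9 in moderate hypoxia and 37.8 in the control. The accessory subunit rnaseh2b was level, at 210 in severe hypoxia, 227 in moderate hypoxia and 217 in the control. The other accessory subunit, rnaseh2c, had 128 in severe hypoxia, 122 in moderate hypoxia and 248 in the control. By the scaling used rnaseh2c was about equally low in both hypoxia groups, with log2 ratios of -0.95 for severe and -1.03 for moderate hypoxia against the control. After the length trend was removed its moderate ratio was 0.0799, and its ratio for severe against moderate hypoxia was -0.61. On library totals rnaseh2c was lowest in severe hypoxia, at -0.61 against the control and -0.27 against moderate hypoxia. There, rnaseh2b in severe hypoxia was above the control by 0.30. Of RNase H1, Rnaseh1 had 160 in severe hypoxia, 142 in moderate hypoxia and 189 in the control, and rnh1, which carries the same KEGG number, had 255 in severe hypoxia, 169 in moderate hypoxia and 399 in the control. The gene listed as zgc:1102, whose symbol is cut after 8 characters and whose KEGG number is that of fen1, had 221 in severe hypoxia, 157 in moderate hypoxia and 326 in the control. These last 3 were lowest in moderate hypoxia, though on library totals Rnaseh1 was above the control by 0.28 on the log2 scale there. RNASEH2A (2 of 2) ranged from 5.20 to 12.1 scaled counts. The mitochondrial single-strand binding protein SSBP1, which the pathway also lists, had copies at 137 and 130 in severe hypoxia, 204 and 171 in moderate hypoxia and 153 and 157 in the control.

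Transcript levels per length, with copies summed, were compared between the subunits of an enzyme. In polymerase delta, pold4 had 36.7 FPKM in severe hypoxia, 14.1 in moderate hypoxia and 36.4 in the control. The level of pold4 was 9.78 times that of the lowest subunit, pold1, in severe hypoxia, and 7.43 times in the control. In moderate hypoxia the highest and lowest subunit levels of polymerase delta were within 1.30-fold of each other. Polymerase alpha and primase had a ratio of highest to lowest subunit level of 3.01 in severe hypoxia, 1.48 in moderate hypoxia and 4.17 in the control, with pola1 the lowest in each group. In polymerase epsilon that ratio was 10.96 in severe hypoxia, 3.22 in moderate hypoxia and 8.39 in the control, with pole4 the highest subunit in each group. For RNase H2 it was 4.04 in severe hypoxia, 2.11 in moderate hypoxia and 8.42 in the control, and for RFC 2.24, 2.07 and 2.85 in those groups. In each of the 5 complexes the ratio was smallest in moderate hypoxia. The highest and lowest subunits often differ in length, and genes of like length show a trend in the same direction: their median log2 ratio for moderate hypoxia against the control was 0.54 at the length of pole, against -1.11 at that of Pole4. FPKM depends on library totals, but a ratio of 2 subunits within a group does not.

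**Figure D4:**
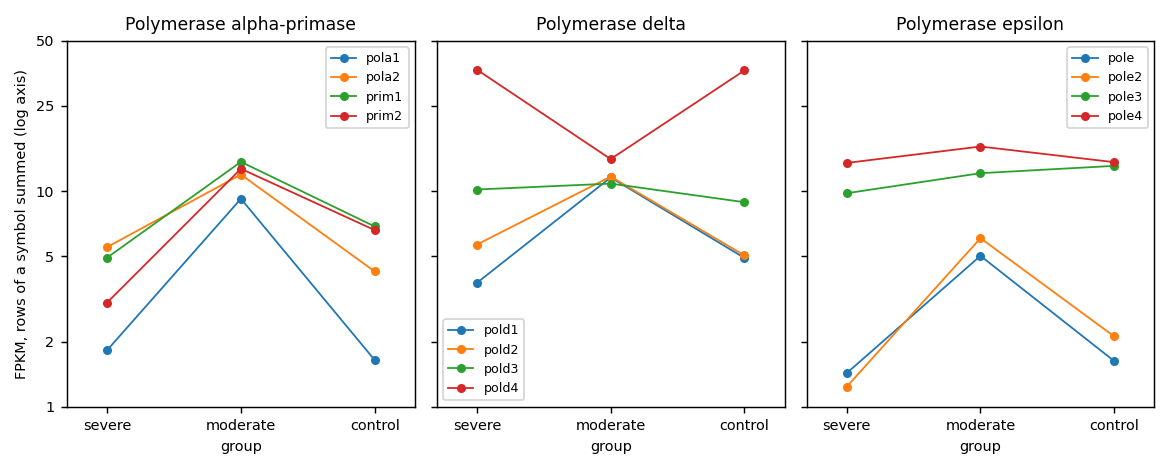
FPKM (log axis) of the subunits of polymerase alpha-primase, polymerase delta and polymerase epsilon in severe hypoxia, moderate hypoxia and the control, copies of a symbol summed. Each point is 1 deposited group value; in the polymerase delta panel pold4 stands at 36.7 and 36.4 in severe hypoxia and the control and meets the other subunits at 14.1 in moderate hypoxia.

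Gene length moved with the ratios over the whole table, and pold4, POLE4 and Pole4 are short, with derived lengths of 625 to 845 bases. Pold3, pold3 and pole3, at 1742 to 1861 bases, lie near pole2, at 1787 bases. By the scaling used their log2 ratios for severe against moderate hypoxia were 0.24, 0.26 and 0.05, against -1.95 for pole2. Over 28639 analysed genes with a length derived from count and FPKM, Spearman's rho between length and the log2 ratio was -0.33 for severe against moderate hypoxia, 0.19 for severe hypoxia and 0.35 for moderate hypoxia against the control. Among the 44 fork genes it was -0.43, 0.08 and 0.42 in the same comparisons. These are across genes that share the same libraries and are given as a description. When each ratio was set against the median of genes of like length, the fork genes had medians of -0.94 for severe against moderate hypoxia, -0.44 for severe hypoxia against the control and 0.49 for moderate hypoxia against the control. Then 8, 10 and 36 of the 44 ratios lay above 0, and 8 were at least 2-fold higher in moderate hypoxia than in the control, near the 19.1% of all genes under the same setting. Of the genes below the control in moderate hypoxia, those that turned above it included rfa3 at 0.77, RPA3 at 0.37, POLE4 at 0.30 and fen1 (1 of 3) at 0.24. Removing the trend left the catalytic and second subunits of polymerases delta and epsilon between -2.17 and -0.80 in severe against moderate hypoxia. Their other subunits then lay between -0.81 for Pole4 and 1.04 for pold4. These ranges overlapped slightly, as POLD1 (1 of 2) lay at -0.80. What lies behind the trend with length was not tested.

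**Figure D5:**
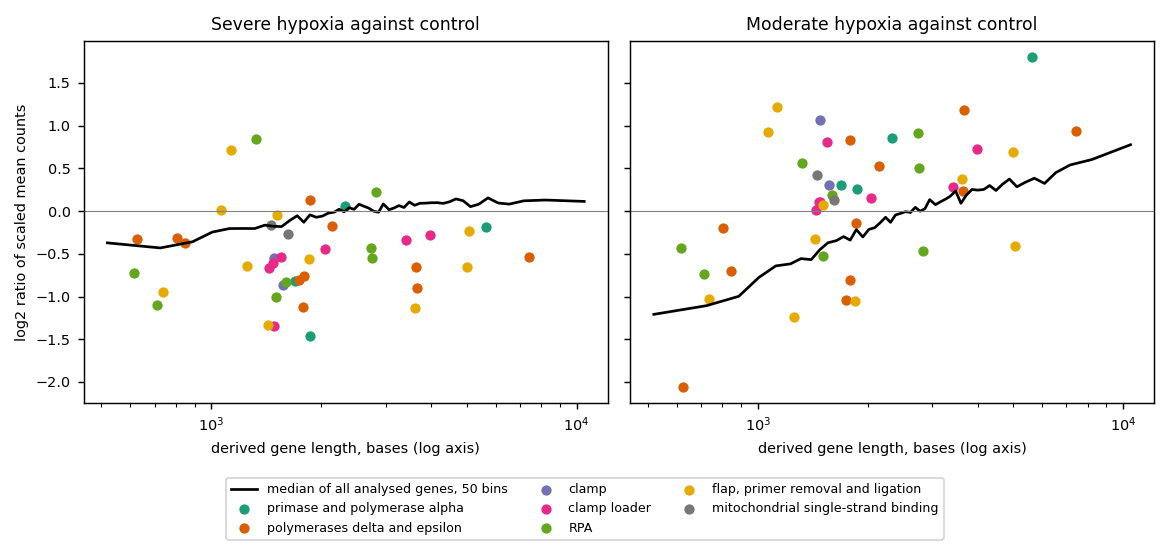
Log2 ratio of scaled mean counts against derived gene length in bases (log axis) for severe hypoxia (left) and moderate hypoxia (right) against the control, with fork genes as points coloured by role and the median of all analysed genes in 50 length bins as a line. In moderate hypoxia the line climbs with length and pold4, at 625 bases and -2.05, lies below it, while in severe hypoxia most points lie under the line.

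Other genes of replication, taken from lists of origin, fork and repair factors, were counted beside the fork genes, and 66 of 74 were expressed. Severe against moderate hypoxia had 34 of the 66 at least 2-fold lower (51.5%, against 10.5% of all genes) and 0 at least 2-fold higher; the median log2 ratio was -1.01. Severe hypoxia against the control had 11 at least 2-fold lower (16.7%, against 4.40%), 1 higher and a median of -0.42. Moderate hypoxia against the control had 17 at least 2-fold higher (25.8%, near the 20.0% of all genes), 0 lower and a median of 0.42. On library totals those medians were -1.36, -0.08 and 1.11. A REV1 copy and Rev3l are among the 34 lower and the 17 higher genes, and passed the count minimum through moderate hypoxia alone. Rev3l is also the 1 gene at least 2-fold higher in severe hypoxia than in the control. Origin licensing genes (14) had medians of -0.44 for severe against moderate hypoxia, -0.41 for severe hypoxia against the control and 0.17 for moderate hypoxia against the control. In the same order the medians were -1.01, -0.74 and 0.10 for origin firing genes (17), -1.12, -0.67 and 0.25 for alternative clamp loaders (7), and -1.79, -0.72 and 1.01 for chromatin assembly genes (4). Fork protection genes (6) had -1.53, -0.53 and 1.19, and 4 of them were at least 2-fold higher in moderate hypoxia than in the control. Among them TIMELESS, which links helicase and polymerases, had 119 scaled counts in severe hypoxia, 416 in moderate hypoxia and 178 in the control, and wdhd1, which ties polymerase alpha to the helicase, had 134, 419 and 170 in those groups. Like pola1, TIMELESS and wdhd1 were highest in moderate hypoxia.

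Polymerases that work outside normal fork copying were counted in the same way. Among 18 expressed genes of translesion, repair and mitochondrial polymerases, moderate hypoxia had 0 at least 2-fold below the control, against 14.1% of all genes. At least 2-fold higher were 7 (38.9%), against 20.0% of all genes, and the median log2 ratio was 0.01. Those 7 include a REV1 copy and Rev3l, which passed the count minimum through moderate hypoxia alone, where they are high. Their scaled counts were 2.26 and 7.38 in severe hypoxia, 11.2 and 14.8 in moderate hypoxia and 2.67 and 2.33 in the control. Severe against moderate hypoxia had 5 lower (27.8%, against 10.5%), with that REV1 copy and Rev3l among them, and a median of -0.13. The mitochondrial polymerase gene polg is among the 7 higher and the 5 lower genes, with log2 ratios of 1.17 and -1.74. The gene polq, for the polymerase of theta-mediated end joining, had 24.3 scaled counts in severe hypoxia, 115 in moderate hypoxia and 25.7 in the control. The base excision repair polymerase gene polb had 240 in severe hypoxia, 133 in moderate hypoxia and 247 in the control, and was lowest in moderate hypoxia.

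Marker transcripts of several cell types moved with the groups. Of the red blood cell markers, 18 of 48 listed gene copies were expressed and 9 of 11 symbols found. The listed copies summed to 43857 CPM in severe hypoxia, 22015 in moderate hypoxia and 72639 in the control. In moderate hypoxia 17 of the 18 were at least 2-fold lower than in the control, against 14.1% of all genes. The slc4a1 copies lay at -0.69 and -1.02 in that comparison. Between severe and moderate hypoxia they had log2 ratios of 0.00 and 0.13, where expressed globin copies had 1.01 or more. All 16 listed copies of proliferation genes outside replication, such as mki67 and top2a, were expressed, and they summed to 390 CPM in severe hypoxia, 1203 in moderate hypoxia and 513 in the control, the same order as the fork genes. Their median log2 ratios were -0.85 for severe against moderate hypoxia, -0.61 for severe hypoxia against the control and 0.42 for moderate hypoxia against the control. In moderate hypoxia mki67 and top2a had the highest mean counts of this list, 6167 and 4396. By the scaling used, 4 of the 16 copies were below the control there, with cdk1 at -0.53 and -0.66. A copy each of ccnb1 and ccnb2 was highest in severe hypoxia by that scaling, at 1.17 and 0.91 against the control. On library totals all 16 were above the control in moderate hypoxia, and all 16 were lower in severe than in moderate hypoxia. B and T cell markers (7 expressed of 8) summed to 407, 393 and 207 CPM in severe hypoxia, moderate hypoxia and the control. Most of that sum came from the CD79A and cd79b copies, and cd4 was not found. By the scaling used, their median log2 ratio in moderate hypoxia against the control was 0.28 over the 7 genes. Of these, 5 lay above 0, while cd3e and cd8a lay at -0.04 and -0.45. On library totals all 7 were above the control in moderate hypoxia. Neutrophil and macrophage markers (8 of 9) summed to 6628, 9558 and 7454 CPM in severe hypoxia, moderate hypoxia and the control. Of that list 4 of 7 symbols were found, without mpx, csf1r and mpeg1. The higher moderate sum of the last list came from mmp9. Its mean count was 6125 in severe hypoxia, 37705 in moderate hypoxia and 5197 in the control. Without the mmp9 copies the list summed to 6203, 7081 and 7104 CPM in those groups. By the scaling used, 6 of the 8 genes were below the control in moderate hypoxia, with a median log2 ratio of -0.23. On library totals 5 of the 8 were above it, with a median of 0.46. Interrenal and chromaffin markers (5 of 7) summed to 378, 172 and 205, and kidney tubule markers (1 of 7, with slc12a1 at 0) to 54.0, 60.1 and 34.7. Most of the interrenal and chromaffin sum was star, with mean counts of 4536, 1875 and 2405 in those groups. By the scaling used, 4 of these 5 genes were below the control in moderate hypoxia and th was above it by 0.74. On library totals 3 of the 5 were above it. Muscle markers (5 of 5) summed to 136, 32.8 and 190, and liver markers (1 of 3) to 5.67, 0.196 and 4.44. The symbols acta1 of muscle and alb and apoa1 of liver were not found, and the expressed liver gene was FGA. The part of all these cell types in the differences of the fork genes was not tested.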

How the data were processed

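Head kidney RNA of 9 libraries, 3 per group, was analysed from 1 table of groups, with groups taken from the treatment labels. Per the file headers, the deposited values are 1 count and 1 FPKM per gene and group, computed by the authors. The deposited counts were read as estimated counts averaged over 3 libraries: multiplied by 3, between 69.6% and 73.9% of non-zero values were whole within 0.002. The submitters' processing notes name Bowtie2 2.2.8 and HISAT2 without a role. Which tool counted, with what strand setting and on which genome build, is not given in the sources used here. Lines were split at fixed positions into 16 fields of 8 characters, which cuts longer IDs and symbols, and copies with 1 symbol could be separated only by line. Copies share reads where near-identical, so single copies are uncertain, although 0 of the 44 expressed fork genes shared all 6 values with another gene. Of their 32 symbols, 21 are in the RefSeq gene table of USDA_OmykA_1.1. Sequences were not used here.

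The planned quasi-likelihood test needs values per library and was not run. Kept were genes that reached a mean count of 10 in 1 group or more. Scaling used trimmed means of log ratios (TMM, trimming 30% by ratio and 5% by abundance), with code tested on simulated data. Ratios of single genes carry exact Clopper-Pearson 95% counting intervals and shares carry Wilson intervals; without molecular identifiers they cover counting error only. A gene counted as called at 2-fold. Fork genes with at least 50 counts in a group were named with all values, the rest by range. Gene length was derived as the quotient of count and FPKM, and its trend was taken as medians in 50 bins. Alternatives were library totals, median-of-ratios factors, other count minimums, FPKM with pseudocounts of 1 and 0.1, removal of the length trend, summed copies and a 1.5-fold threshold. Members and lists were chosen with earlier results of these data known. Python 3.11.15, numpy 2.4.6, pandas 2.3.3, scipy 1.17.1 and matplotlib 3.10.9 were used.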

Additional observations from a re-analysis of the deposited data

How the results depend on the processing

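Median-of-ratios factors, no count minimum, a minimum of 50 counts and summed copies gave medians of 0.17 to 0.21 for moderate hypoxia and -0.60 to -0.56 for severe hypoxia against the control, and -0.75 to -0.67 for severe against moderate hypoxia. For moderate hypoxia against the control the median log2 ratio (0.21) was 0.90 on library totals, 0.71 and 0.88 on FPKM with pseudocounts of 1 and 0.1, and 0.49 with the length trend removed. The count at least 2-fold higher (4) was 17, 13, 18 and 8 in that order, 1 with copies summed and 12 at 1.5-fold. For severe hypoxia against the control the median (-0.55) was -0.21 on library totals and -0.18 and -0.20 on FPKM; the count at least 2-fold lower (7) was 2, 0 and 1 there, 4 with the length trend removed and 20 at 1.5-fold. For severe against moderate hypoxia the median (-0.69) was -1.04, -0.92 and -1.01 under those settings and -0.94 with the length trend removed, and the count lower (17) stayed between 13 and 25 except among pathway genes. A setting added after seeing the data kept only the 15 expressed genes of the pathway field, the set that the rule itself fixed. Against the control, 2 were then higher in moderate hypoxia (13.3%, against 20.0% of all genes), with RNASEH2A (2 of 2) among them. In severe hypoxia 2 were lower than in the control (13.3%, against 4.40%). Lower in severe than in moderate hypoxia were 5 (33.3%, against 10.5% of all genes and 38.6% of the 44 fork genes). Against the control the severe median of these 15 genes was -0.27 by the scaling used. On library totals it was 0.06, with 8 of the 15 above 0 and 1 at least 2-fold lower, where all genes had 2.09%. With the length trend removed, rnaseh2c in moderate hypoxia turned to 0.0799, and rfa3, RPA3, POLE4, Pole4, fen1 (1 of 3) and pold3, all less than 2-fold below the control, turned to 0.77, 0.37, 0.30, 0.91, 0.24 and 0.08. Apart from scaling, which shifts all ratios of a comparison alike, the cause was not tested. No paired analysis was possible because the table holds 1 mean per group and no value per library, and leaving out replicates was not run for the same reason. Depth limits RPA2 (2 of 2) and RNASEH2A (2 of 2) most.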
